A study of Mus musculus with 2 samples.

Results

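The 8 genes described here encode components and receptors of the complement system, and they were chosen by name, from 23946 genes with a count in either library. C1qa, C1qb and C1qc encode the chains of C1q. C3 encodes the central component, Cfb encodes factor B, Cfp encodes properdin, and C3ar1 and C5ar1 encode the receptors for the anaphylatoxins C3a and C5a. Single-cell RNA-seq was run on CD45+ cells from hearts of female WT C57BL6 mice, with 2 libraries. The ISO library came from mice given 200 mg/kg isoproterenol (ISO), a β-adrenergic agonist, by i.p. injection, and the control library came from mice given PBS. Hearts of 3 mice aged 8 to 16 weeks were pooled per library 24 hours after injection, and 15000 cells were loaded. The mice of a library cannot be separated. With 1 library per group there is no replicate check, so no p-value is given and all intervals are 95% intervals that cover counting error only.

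Complement is a set of plasma and cell-derived proteins that tag particles and dying cells for uptake and attract leukocytes. C1q recognizes antibody complexes and dying cells and starts the classical pathway. C3 is cleaved in every pathway, and its fragments coat targets. Factor B and properdin build and stabilize the C3-cleaving enzyme of the alternative pathway. Small fragments of C3 and C5 act on phagocytes through C3ar1 and C5ar1. Tissue macrophages are a known source of C1q, whereas the liver makes most plasma C3.

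The C1q genes lie side by side on the minus strand of mouse chromosome 4 (GRCm38, GENCODE M21 annotation), C1qb at chr4:136880129-136886187, C1qc at chr4:136889804-136893065 and C1qa at chr4:136895917-136898803, within 18675 bases. C3 lies at chr17:57203970-57228136, Cfp at chrX:20925454-20931555, C3ar1 at chr6:122847138-122856161 and C5ar1 at chr7:16246743-16259540. RefSeq promoter windows (GRCm38.p6) matched 6 of the 8 genes. No window was at hand for C1qa or Cfb. The 250 bases before the RefSeq start are shown, 5′ to 3′. They are given for the C1q genes with a window and C3ar1, which were lower in ISO macrophages, and for C3, which was higher. RefSeq starts can differ from the GENCODE gene ends given above. The C1qc and C5ar1 windows lie mostly inside the GENCODE genes.

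C1qb, chr4:136886201-136886450, minus strand: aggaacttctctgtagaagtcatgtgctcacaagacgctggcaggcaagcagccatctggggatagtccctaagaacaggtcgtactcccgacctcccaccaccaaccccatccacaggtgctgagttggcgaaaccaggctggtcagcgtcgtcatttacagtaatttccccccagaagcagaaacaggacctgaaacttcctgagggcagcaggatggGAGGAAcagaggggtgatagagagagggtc
C1qc, chr4:136892915-136893164, minus strand: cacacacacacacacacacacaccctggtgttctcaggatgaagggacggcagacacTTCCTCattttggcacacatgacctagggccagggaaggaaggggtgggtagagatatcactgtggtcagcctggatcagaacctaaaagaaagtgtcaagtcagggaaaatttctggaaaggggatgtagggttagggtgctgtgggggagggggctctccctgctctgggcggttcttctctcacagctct
C3ar1, chr6:122856158-122856407, minus strand: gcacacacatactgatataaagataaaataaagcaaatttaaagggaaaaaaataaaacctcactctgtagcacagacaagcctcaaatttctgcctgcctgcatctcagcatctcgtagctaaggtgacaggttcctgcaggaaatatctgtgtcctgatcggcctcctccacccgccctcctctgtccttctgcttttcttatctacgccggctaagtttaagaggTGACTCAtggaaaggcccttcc
C3, chr17:57228137-57228386, minus strand: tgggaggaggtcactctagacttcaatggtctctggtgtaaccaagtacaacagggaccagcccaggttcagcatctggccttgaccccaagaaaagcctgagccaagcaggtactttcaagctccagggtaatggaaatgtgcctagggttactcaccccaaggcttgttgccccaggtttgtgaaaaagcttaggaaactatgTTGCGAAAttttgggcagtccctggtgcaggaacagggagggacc

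Capitals mark matches, on either strand, to 9 motifs: GAGGAA (PU.1), TGCTGAC (Maf), TGACTCA (AP-1), TTGCNNAA (C/EBP), GGGACTTTC and GGGAATTTC (NF-kB), ACGTG (hypoxia response core), TTCNNNGAA (STAT) and GAAANNGAA (interferon response). Both C1q windows held the PU.1 letters, 30 bases before the RefSeq start in C1qb and 193 bases before it in C1qc. The same letters were in 23.3% of all 32851 windows. The C3ar1 window held the AP-1 letters, which 4.46% of windows held. The C3 window held the C/EBP letters, found in 9.56% of windows. The C5ar1 window held the interferon response letters, present in 7.13%, and the Cfp window held none of the motifs. The other shares of windows were 3.81% for the Maf motif, 0.289% and 0.234% for the NF-kB motifs, 16.6% for the hypoxia response core and 7.02% for STAT. These matches are descriptions of letters only.

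After filtering, 5641 control and 5437 ISO barcodes remained, with medians of 4790 and 8537 unique molecular identifiers (UMIs) per barcode. The libraries shared 15 barcode sequences among those kept. Cells were assigned to classes by marker genes that include no complement member. Barcodes that met set rules for markers of more than 1 lineage, 1558 control and 1427 ISO barcodes, were left out of the classes. These mixed barcodes held 70.3% of the control C1qa UMIs and 55.1% of the ISO C1qa UMIs. The rules did not set aside neutrophils or dendritic cells for monocyte markers. The median monocyte score, with a gate cut of 1, was 0.852 in control and 1.42 in ISO neutrophils. In dendritic cells it was 0.387 in the control and 0.886 in the ISO library. Levels are given as CPM, the UMIs of a gene over all UMIs summed for a class and scaled to a common total. The control library held 1966 B cells, 412 natural killer (NK) cells and 62 monocytes, whereas the ISO library held 45, 30 and 1485.

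The macrophage gate held 813 control and 1527 ISO cells, with median depths of 5836 and 8167 UMIs. All 11 macrophage markers were counted in both. Their summed level was 23017 CPM in the control against 9807 CPM in the ISO macrophages, while the 8 monocyte markers took 238 and 2999 CPM. The gate is a range on a score: 24 control and 327 ISO cells lay within 0.25 of the score cut or of the monocyte score. The median monocyte score over cells was 0 in the control against 0.97 in the ISO macrophages, and the median B cell, T cell, NK cell, group 2 innate lymphoid cell (ILC2) and dendritic cell (DC) scores were 0 in both. Ptprc, which encodes CD45, was at 527 CPM in control macrophages against 267 CPM after ISO. The part of these shifts in the results was not tested.

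C1q transcripts were lower in ISO macrophages for each chain. C1qa was at 5345 CPM (5281 to 5409) in control against 1219 CPM (1200.3 to 1237) in ISO macrophages, a log2 ratio of -2.13 (-2.16 to -2.11). C1qb was at 5025 CPM (4963 to 5088) in control cells against 1491 CPM (1471 to 1511) after ISO, a log2 ratio of -1.75 (-1.78 to -1.73). C1qc was at 3381 CPM (3330.4 to 3433) and 768 CPM (753 to 782), a log2 ratio of -2.14 (-2.17 to -2.10). Summed over the 3 chains, the level was 3.95-fold lower in ISO macrophages. The intervals of the libraries do not overlap for any chain.

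The other members did not share 1 direction in macrophages. C3 was at 18.4 CPM (14.9 to 22.6) in the control against 66.9 CPM (62.6 to 71.3) in ISO macrophages, a log2 ratio of 1.85 (1.55 to 2.18). Cfp was at 168 CPM (157 to 180) and 345 CPM (335 to 355), a log2 ratio of 1.04 (0.93 to 1.15). C3ar1 was lower, as C1q was, from 499 CPM (479 to 519) in the control to 242 CPM (234 to 250.3) in the ISO library, a log2 ratio of -1.04 (-1.12 to -0.97). C5ar1 differed least, at 524 CPM (504 to 544) against 601 CPM (588 to 614), a log2 ratio of 0.20 (0.14 to 0.26). The median ratio of the C1q chains was 2.75 log2 units below the median of C3, Cfp, C3ar1 and C5ar1.

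Of the 7 members with at least 20 UMIs in macrophages, 4 were at least 2-fold lower in ISO, namely C1qa, C1qb, C1qc and C3ar1, where 21.9% of the 11795 genes tested were. C3 and Cfp were at least 2-fold higher, 2 of 7, where 10.2% of genes were. The C3ar1 ratio was under 2-fold with the macrophage cut doubled (-0.75), with mixed barcodes kept (-0.53), after thinning (-0.95) and centred on the median gene (-0.79). The Cfp ratio was under 2-fold with the B cell level (0.02) or the NK cell level (0.45) of the same library subtracted. The median log2 ratio of all genes was -0.25, and 5.83% of genes had a lower ratio than C1qa, 8.78% than C1qb, 5.79% than C1qc and 20.8% than C3ar1. C3 stood above 96.8% of genes and Cfp above 90.5%.

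**Figure D1:**
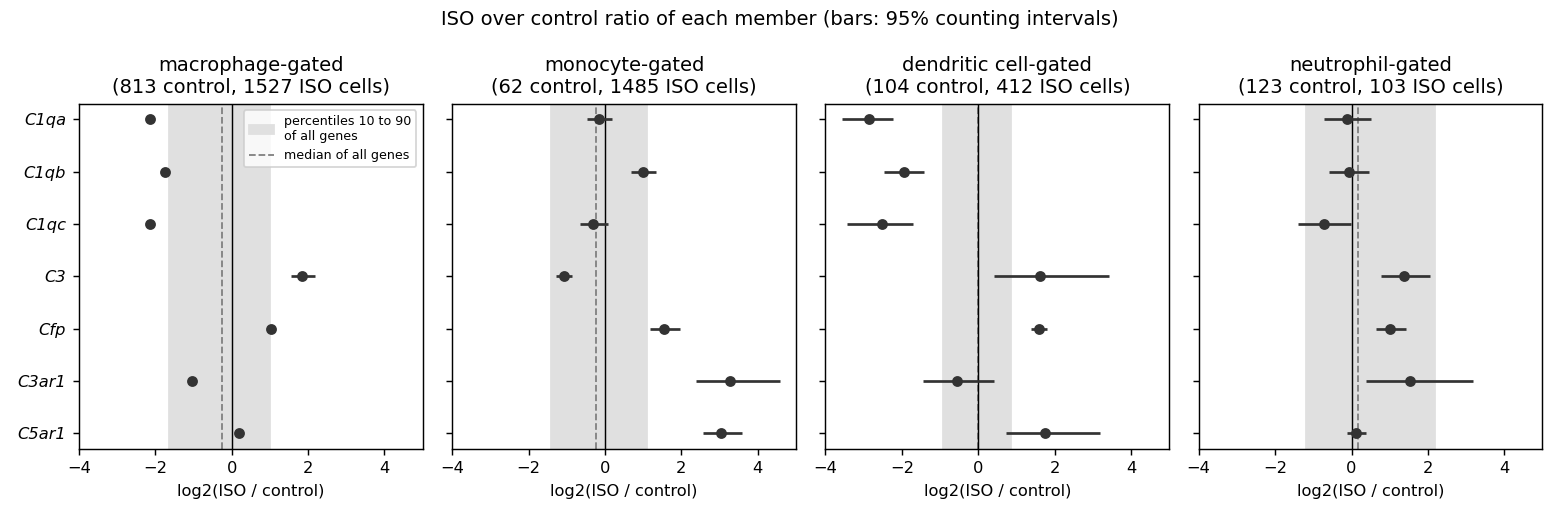
Log2 ratio of ISO over control (x axis) for each member (y axis) in 4 gated classes, with points for the ratio of summed CPM and bars for 95% counting intervals. Gray bands span percentiles 10 to 90 of all genes tested in that class, and the C1q chains lie below the band in macrophages, where C1qb is at -1.75 and the band starts at -1.65.

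Cfb had almost no counts in these data. The control library listed no Cfb UMI and the ISO library 1, over all 5927 and 5514 barcodes. In the GENCODE M21 annotation Cfb lies at chr17:34856374-34862518 on the minus strand, and 79.5% of its exonic bases are shared on the same strand with the locus Gm20547, which had no UMI in either library. None of the other 7 members shared exonic bases with another gene on its strand. The neighboring gene C2, a classical pathway component, had 116 control and 25 ISO UMIs. Gm20547 runs on past the end of Cfb, to chr17:34882042, and whether it shares exonic bases with C2 was not computed. Whether the overlap accounts for the lack of Cfb counts was not tested, and no level or ratio is given for Cfb.

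The lower C1q level in ISO macrophages went with many cells that had no C1q UMI. In the control, 13 of 813 macrophages, or 1.6% (0.854 to 2.72), had no UMI of any chain, against 580 of 1527, or 38.0% (35.5 to 40.5), in the ISO library. The ISO cells were deeper. With each cell thinned to 1000 UMIs the shares were 2.58% (1.61 to 3.92) and 50.9% (48.4 to 53.5). Per cell, the median was 131 C1q UMIs per 10000 in the control, with quartiles of 86.8 and 177. In the ISO macrophages the median was 6.05, with quartiles of 0 and 53.5. The highest ISO cells overlapped the control range, since percentile 95 was 186 in the ISO and 252 in the control macrophages.

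**Figure D2:**
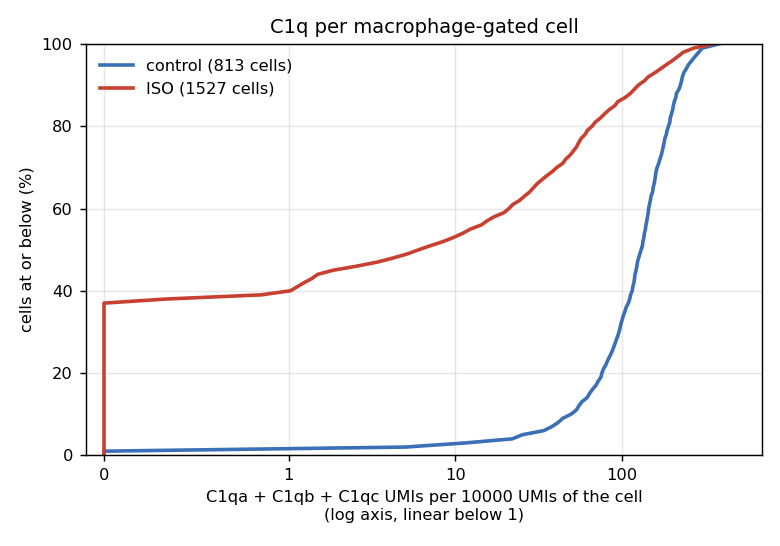
Percent of macrophage-gated cells (y axis) at or below a level of C1qa, C1qb and C1qc UMIs per 10000 UMIs of the cell (x axis, logarithmic above 1), with a line for each library. The ISO line starts near 38.0% at 0 UMIs, and stays above the control line, with percentile 95 at 186 UMIs per 10000 against 252 in the control.

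Free RNA in droplets gives some UMIs in cells that do not make a gene, so the shares were set beside NK cells. After thinning, C1qa was counted in 94.5% of control and 33.1% of ISO macrophages, and without thinning in 97.8% and 48.7%. In control NK cells, with a median of 3588 UMIs, C1qa was counted in 3.89% of thinned and 10.9% of unthinned cells, at 29.7 CPM (21.9 to 39.3). In the 30 ISO NK cells, with a median of 3931 UMIs, it was counted in 0 thinned cells, which allows a share of up to 11.6%, and in 10.0% of unthinned cells, at 32.6 CPM (10.6 to 76.1). The C1qa level in ISO macrophages was thus far above that in NK cells of the same library, while the NK cell levels of the libraries overlapped.

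The C1q difference was present within ranges of the macrophage marker score. The highest range took all scores above 2.5, and the mix of subsets within a range was not matched between libraries. Among macrophages with a score from 2 to 2.5, the C1q chains together took 11197 CPM (11007 to 11389) in 198 control cells against 3399 CPM (3339 to 3461) in 357 ISO cells. Above 2.5 they took 15910 CPM in 484 control and 9924 CPM in 265 ISO cells. Within each library the C1q level was higher at higher scores, from 4643 CPM at scores of 1 to 1.5 in control cells against 1263 CPM after ISO.

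Macrophages were then split by transcripts that mark resident cells (Timd4, Lyve1, Folr2, Cd163), by the monocyte chemokine receptor Ccr2 and by arginase 1 (Arg1). Resident cells made up 567 of 813 control macrophages, 69.7% (66.5 to 72.9), and 304 of 1527 ISO macrophages, 19.9% (17.9 to 22.0). Ccr2 cells with little Arg1 made up 8.98% (7.10 to 11.2) of the control and 47.1% (44.6 to 49.6) of the ISO macrophages. Arg1-high cells were 1 control cell and 397 ISO cells, so the subset has no control level. The ISO resident gate also held 615 CPM of Arg1 and 491 CPM of Ccr2, against 0.834 and 84.5 CPM in the control, so it is not free of transcripts of the other subsets. Its resident markers were lower too. Timd4 was at 104 CPM in control against 41.4 CPM in ISO resident cells, and Lyve1 at 509 against 345 CPM. Folr2 was at 624 against 301 CPM and Cd163 at 591 against 449 CPM. The part of these shifts in the resident C1q values was not tested.

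C1q was lower in the ISO library within each subset that had cells in both libraries. In resident macrophages C1qa was at 5788 CPM (5710 to 5867) in control cells against 3617 CPM (3548 to 3688) after ISO, a log2 ratio of -0.68 (-0.71 to -0.64). C1qb and C1qc had ratios of -0.64 (-0.67 to -0.60) and -0.74 (-0.78 to -0.69) there. In Ccr2-low macrophages, 172 control and 107 ISO cells, C1qa was at 4567 and 1336 CPM, a log2 ratio of -1.77 (-1.87 to -1.67). In Ccr2 macrophages with little Arg1, 73 control and 719 ISO cells, it was at 3576 and 618 CPM, a log2 ratio of -2.53 (-2.62 to -2.45). The 397 Arg1-high ISO cells had 427 CPM (407 to 448) of C1qa. By these ratios the C1qa difference was smallest in resident cells and largest in Ccr2 cells with little Arg1. The counting intervals of the 3 paired subsets do not overlap, but they do not cover spread between cells. The top control Ccr2 cell with little Arg1 held 153 of 1744 C1qa UMIs. The order of the subsets was not tested.

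The 2-fold counts depended on the mix of subsets. In resident macrophages, 0 of 7 members were at least 2-fold lower, where 11.9% of genes were. C3 alone was at least 2-fold higher, 1 of 7, where 9.18% of genes were. In Ccr2 macrophages with little Arg1 the 3 C1q chains were at least 2-fold lower, where 16.7% of genes were, and Cfp alone was at least 2-fold higher, where 13.2% of genes were. When the subsets of both libraries were weighted by their control shares, the C1q log2 ratio in macrophages went from -1.98 to -0.88, and no member was then at least 2-fold lower.

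The other members differed in how they varied by subset. C3 was at 14.7 CPM (11.0 to 19.3) in control against 50.1 CPM (42.2 to 59.0) in ISO resident macrophages, but at 53.3 CPM (34.8 to 78.1) and 67.7 CPM (61.4 to 74.5) in Ccr2 cells with little Arg1, where the intervals overlap. Cfp was higher in the ISO library in resident, Ccr2-low and Ccr2 cells with little Arg1, with log2 ratios of 0.83, 2.15 and 1.18, none of them corrected for the Cfp level in lymphocytes, which was 206 CPM in ISO and 30.9 CPM in control B cells. C3ar1 was lower in these subsets, with ratios from -0.92 to -0.72, and C5ar1 was higher, with ratios from 0.25 to 0.70.

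**Figure D3:**
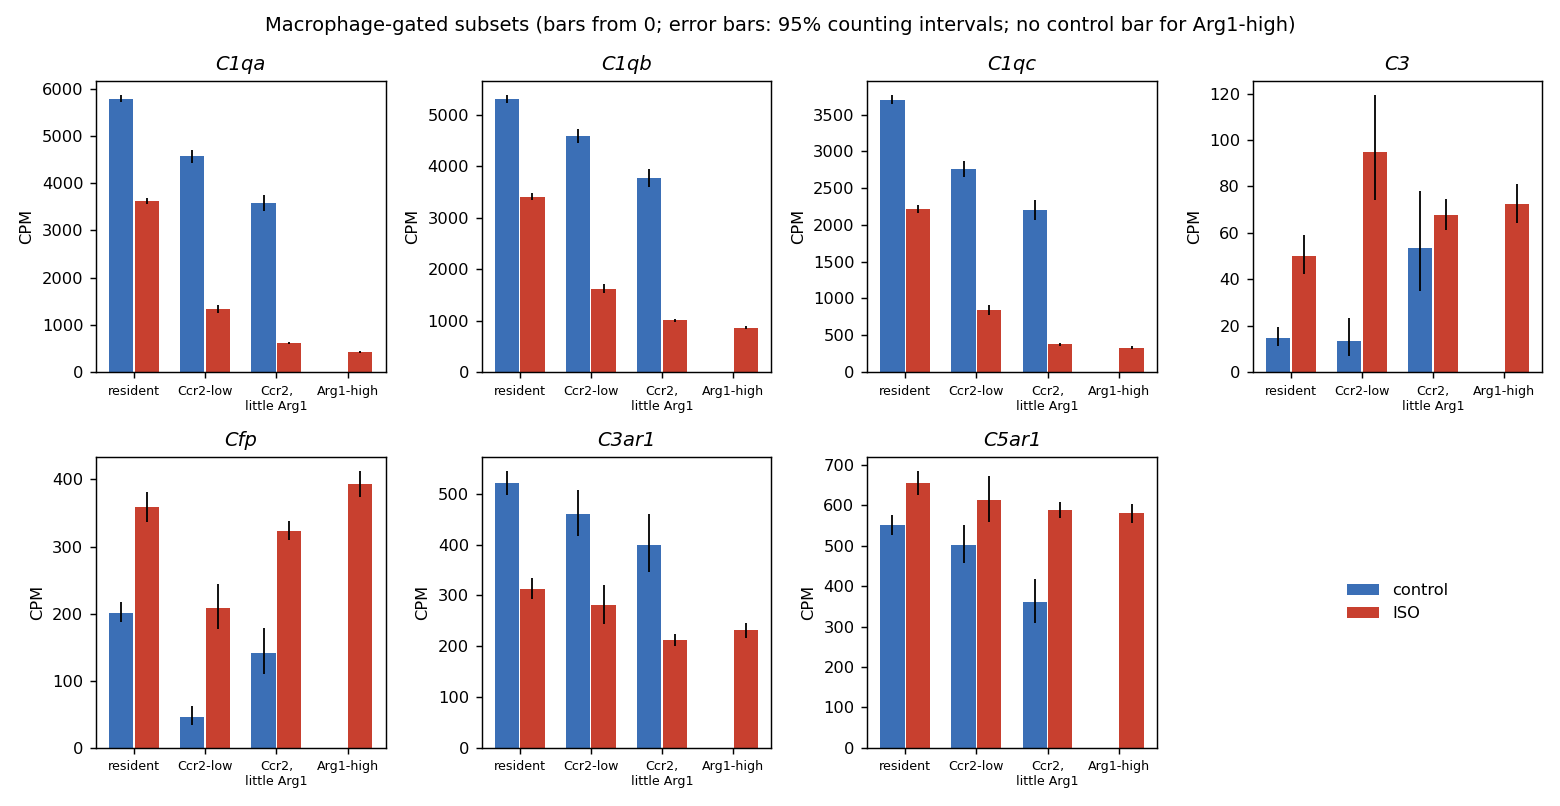
CPM (y axis, from 0) of each member in 4 macrophage subsets (x axis), with 1 bar per library and error bars for 95% counting intervals. Each C1q chain is lower in the ISO than in the control library in the 3 subsets with both bars, while Cfp is higher.

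The ratio between the C1q chains also differed between macrophage subsets of the ISO library. C1qb had 0.918 UMIs per C1qa UMI (0.900 to 0.936) in control against 0.943 (0.917 to 0.969) in ISO resident macrophages. In Ccr2 macrophages with little Arg1 the ratio was 1.05 (0.987 to 1.13) in control cells against 1.63 (1.56 to 1.69) after ISO. It was 2.01 (1.90 to 2.13) in Arg1-high cells and 2.09 (1.97 to 2.21) in ISO monocytes. C1qc had 0.640 and 0.614 UMIs per C1qa UMI in control and ISO resident cells, and 0.776 (0.722 to 0.833) in Arg1-high cells. The ratio is between UMI counts of 3′ ends, so it does not compare molecules of protein.

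**Figure D4:**
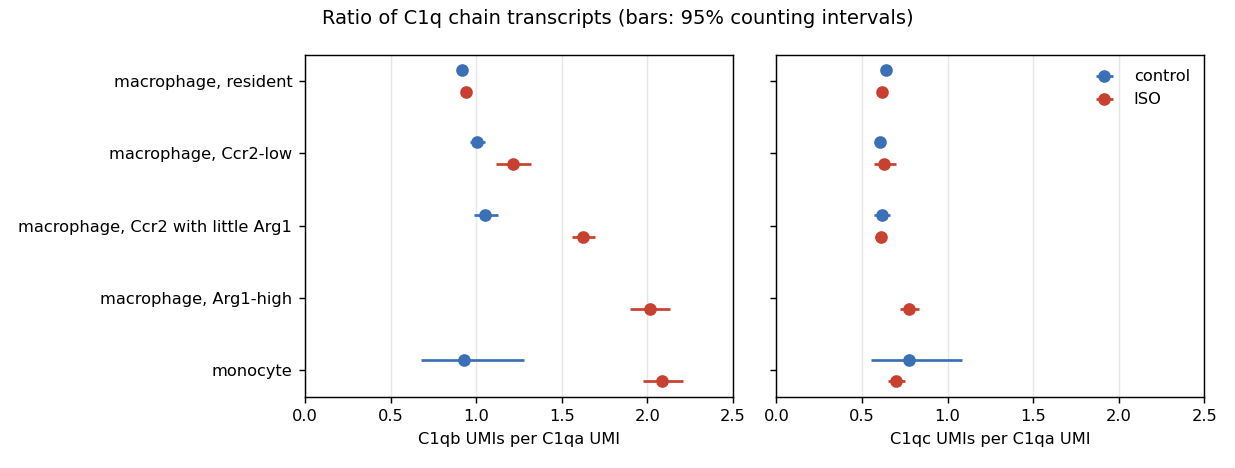
C1qb (left) and C1qc (right) UMIs per C1qa UMI on the x axis, for macrophage subsets and monocytes on the y axis, with bars for 95% counting intervals. The C1qb ratio is near 1 in control cells and 2.01 in Arg1-high ISO cells, while the C1qc ratio lies between 0.604 and 0.776 in the groups drawn.

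Monocytes, the circulating precursors of recruited macrophages, showed another pattern. They were 62 cells in control cells against 1485 after ISO, so the control levels rest on few cells. C3 was lower in the ISO monocytes, at 399 CPM (347 to 456) in control cells against 189 CPM (181 to 197) after ISO, a log2 ratio of -1.08 (-1.28 to -0.87). After thinning it was counted in 32.3% of control and 17.7% of ISO monocytes, and without thinning in 82.3% and 68.2%. C3 was counted in 0 of 412 control NK cells, which allows a share of up to 0.891%, and in 1 of 30 ISO NK cells.

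The anaphylatoxin receptors were higher in ISO monocytes. C3ar1 had 8 UMIs in all control monocytes, 15.1 CPM (6.53 to 29.8), and was at 156 CPM (149 to 163) in the ISO library, a log2 ratio of 3.28 (2.38 to 4.58). C5ar1 was at 64.2 CPM (44.5 to 89.8) and 535 CPM (522 to 548), a log2 ratio of 3.04 (2.57 to 3.59). C5ar1 was counted in 1.61% of control and 38.2% of ISO monocytes after thinning, and in 25.8% and 85.5% before it. Its shares in NK cells were 0.487% and 3.33% after thinning. Cfp was at 110 CPM (83.2 to 142) in control against 323 CPM (313 to 332.7) in ISO monocytes, a log2 ratio of 1.55 (1.18 to 1.96). That ratio was not corrected for the Cfp level in lymphocytes, 30.9 CPM in control and 206 CPM in ISO B cells.

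C1qa did not differ detectably between monocytes of the libraries, at 161 CPM (128 to 199) in control cells against 144 CPM (137 to 151) after ISO. The control C1q UMIs were uneven, since 1 of 62 cells held 30 of 85 C1qa UMIs. C1qb was at 149 CPM (118 to 186) and 300.1 CPM (291 to 310), a log2 ratio of 1.0 (0.69 to 1.35), and without the top cell of each library the ratio was 1.67 (1.27 to 2.14). In monocytes 3 of 7 members, C3ar1, C5ar1 and Cfp, were at least 2-fold higher, where 11.6% of genes were, and 1, C3, was at least 2-fold lower, where 18.9% of genes were. Without the top cell of each library the C3 ratio was -0.97 (-1.18 to -0.75), under 2-fold.

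The monocyte gate overlapped the macrophages, since cells past both cuts were assigned by the higher score. The median macrophage score, with a gate cut of 1, was 1.11 in control and 1.48 in ISO monocytes. Macrophage markers took 3914 CPM in control and 6928 CPM in ISO monocytes, against 9807 CPM in ISO macrophages. Of the 1485 ISO monocytes, 573 lay within 0.25 of the macrophage cut or of the macrophage score, and 28 of 62 control cells did. The part of this overlap in the C1qb, C3ar1 and C5ar1 values was not tested.

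Neutrophils under the macrophage cut were 123 control and 103 ISO cells. The 7 neutrophil markers summed to 107654 CPM in control against 54628 CPM in ISO neutrophils. Monocyte markers took 2236 CPM in control and 3766 CPM in ISO neutrophils, and macrophage markers 708 and 1216 CPM. The part of these marker shifts in the neutrophil values was not tested. C5ar1, through which C5a attracts neutrophils, was at 512 CPM (441 to 591) in control cells against 559 CPM (505 to 617) after ISO, a log2 ratio of 0.12 (-0.13 to 0.39). C3 was at 71.6 CPM (46.8 to 105) and 187 CPM (157 to 222), a log2 ratio of 1.36 (0.77 to 2.05). Cfp, stored in neutrophil granules, was at 185 CPM (143 to 234) and 376 CPM (332 to 424), a log2 ratio of 1.02 (0.63 to 1.44). This Cfp ratio was not corrected for the level in lymphocytes, which was 30.9 CPM in control and 206 CPM in ISO B cells. C3ar1 had 6 control UMIs, 16.5 CPM, and was at 51.5 CPM (36 to 71.2) in the ISO library. The C1q chains together were at 333.2 CPM in control neutrophils against 283 CPM after ISO, and 1 ISO cell held 118 of 198 UMIs. Without the top cell of each library the C1q log2 ratio was -0.95 (-1.41 to -0.48). The 3 genes C3, Cfp and C3ar1, of 7 members, were at least 2-fold higher, where 27.5% of genes were, and 0 of 7 were at least 2-fold lower, where 13.8% of genes were.

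DCs, 104 control and 412 ISO cells, carried properdin transcripts and little of the other members. Cfp was at 161 CPM (139 to 185) in control cells against 484 CPM (462 to 507) after ISO, a log2 ratio of 1.58 (1.37 to 1.81), and was counted in 16.3% and 32.3% of cells after thinning and 62.5% and 81.3% before it. In NK cells, with fewer UMIs per cell, Cfp was counted in 0% of control and 6.67% of ISO cells after thinning, and in 0.728% and 6.67% before it. In B cells the shares were 1.99% and 8.89% after thinning, and 6.82% and 24.4% before it. In a split by leading markers, made after the values were seen, Cfp was higher in the ISO library in cells led by Xcr1 or Clec9a, at 52.0 CPM (35.6 to 73.4) in 43 control cells against 204 CPM (176 to 235) in 86 ISO cells. In cells led by Cd209a it was at 308 CPM (255 to 369) in 37 control cells against 620.3 CPM (582 to 660.1) in 181 ISO cells.

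In DCs 3 of 7 members, C3, Cfp and C5ar1, were at least 2-fold higher, where 7.34% of genes were, but C3 and C5ar1 had 5 and 7 control UMIs. The C1q chains were at least 2-fold lower, 3 of 7, where 8.07% of genes were, and this rested on 1 control barcode. C1qa was at 56.2 CPM in control against 7.59 CPM in ISO DCs, but 1 control barcode held 56 of 69 UMIs. Without the top barcode of each library C1qa was at 10.8 and 6.53 CPM, a log2 ratio of -0.75 (-1.76 to 0.37).

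**Figure D5:**
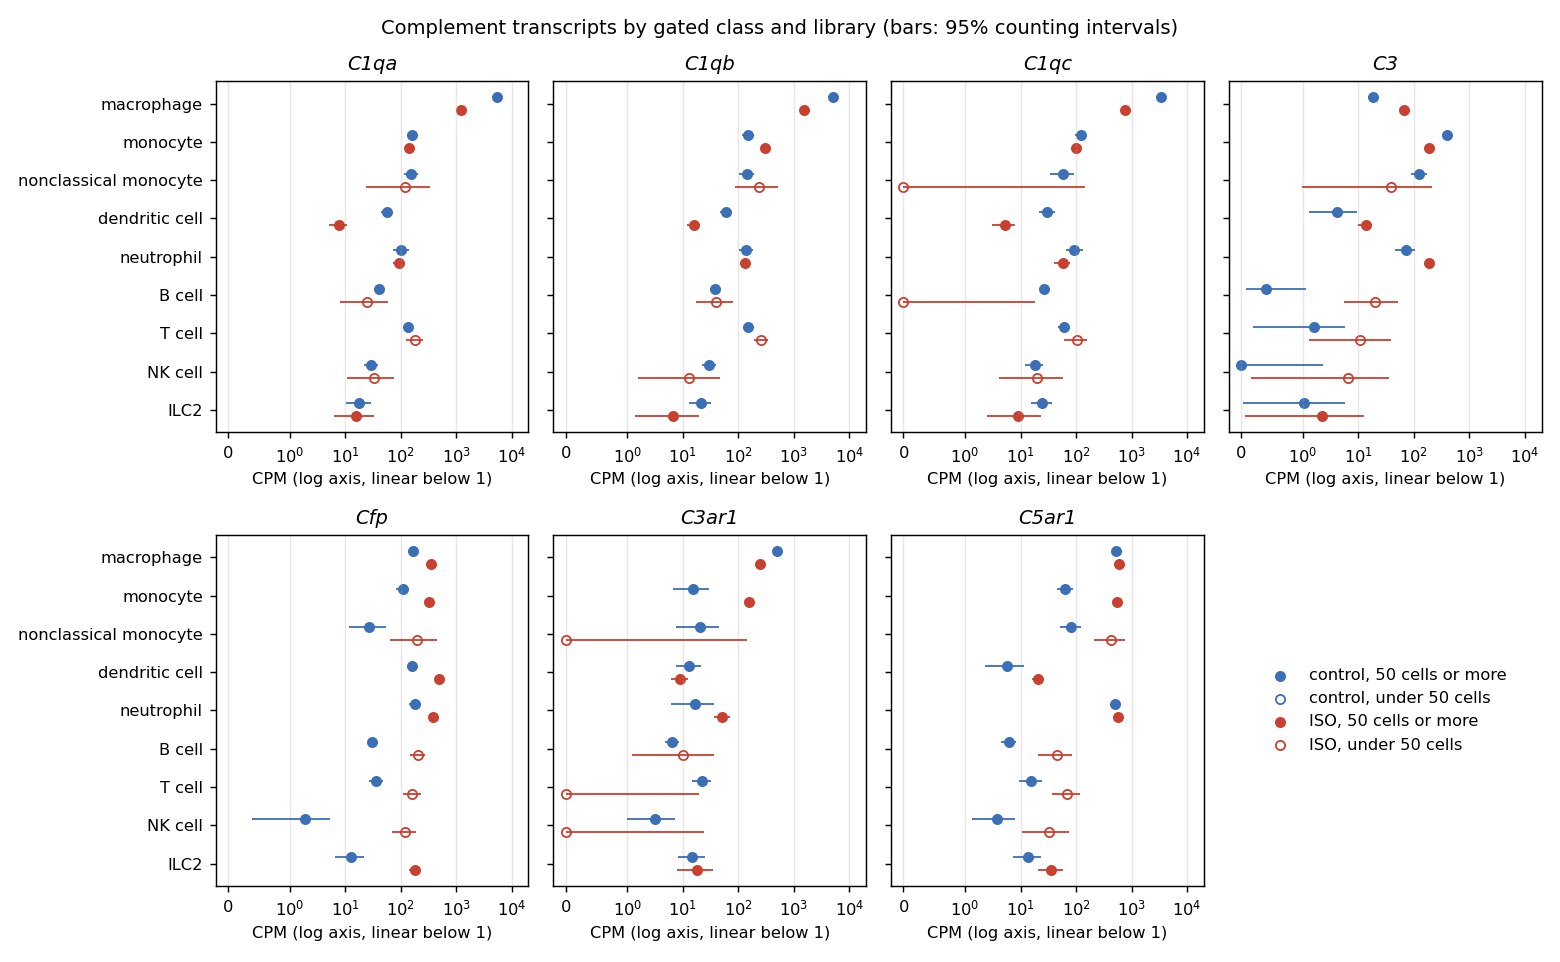
CPM on the x axis (logarithmic above 1) of 7 members in 9 gated classes on the y axis, in the control and ISO libraries, with bars for 95% counting intervals and open points for classes with under 50 cells. C1q is highest in macrophages of both libraries, and Cfp is higher after ISO in macrophages, monocytes, dendritic cells, neutrophils and ILC2.

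Among leukocytes that are not phagocytes, Cfp was again higher in the ISO library. It was at 12.6 CPM (6.52 to 22.0) in 163 control cells against 178 CPM (141 to 222) in 97 ISO ILC2, at 30.9 CPM (27.0 to 35.1) in 1966 control cells against 206 CPM (148 to 279) in 45 ISO B cells, and at 1.85 CPM (0.382 to 5.42) in control against 117 CPM (69.6 to 185) in ISO NK cells. These UMIs were in few cells. The ISO NK cells with a Cfp UMI were 2 of 30, and 1 held 10 of 18 UMIs, while 13 of 97 ISO ILC2 held all 79 UMIs. In the ISO B cells, 11 of 45 held all 41 UMIs. With the B cell level of the same library subtracted, the Cfp ratio in macrophages went from 1.04 to 0.02, and with the NK cell level subtracted it was 0.45. The subtracted levels are means that rest on few cells, not levels spread evenly over cells. The Cfp values in macrophages are given with both limits. No such subtraction is given for monocytes, neutrophils or DCs, so the part of this level in their Cfp ratios was not tested.

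Nonclassical monocytes, the patrolling subset, were 59 control and 6 ISO cells, too few for a comparison. Control cells held 126 CPM (88.6 to 173) of C3 and 81.6 CPM (52.3 to 121) of C5ar1. A stromal gate held 15 control and 9 ISO barcodes, with C3 at 664 CPM (535 to 814) and 509 CPM (326 to 758).

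The order of the classes was described with the classes of at least 50 cells. C1qa was highest in macrophages of both libraries. In the control the next were monocytes at 161 CPM, nonclassical monocytes at 156 CPM and T cells at 135 CPM (116 to 158), which do not differ beyond their intervals. These levels rest partly on single barcodes, since 1 of 202 control T cells held 43 of 168 C1qa UMIs. Without the top barcode the level was 103 CPM in control T cells and 107 CPM in control monocytes. C3 was highest in control monocytes, then in ISO monocytes and ISO neutrophils, whose levels of 189 and 187 CPM do not differ. C5ar1 ranged from 512 to 601 CPM in macrophages and neutrophils of both libraries and ISO monocytes, and was below 82 CPM in the other classes.

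Other complement genes were read from a list of 50, of which 41 had a count in the files and 18 had at least 20 UMIs in macrophages. Of these, 7 were at least 2-fold lower in ISO macrophages, 4 were at least 2-fold higher and 7 were within 2-fold, with a median log2 ratio of -0.57 against -0.25 for all genes. Of all genes in macrophages, 21.9% were lower and 10.2% higher by that measure. Vsig4, a macrophage receptor for C3 fragments, had a ratio of -2.07 (-2.39 to -1.75), and the lectins Fcna and Colec12 had ratios of -2.39 and -1.44. C4b had a ratio of -1.76, and its near-identical copy C4a makes the split of reads uncertain.

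Subunits of the integrin receptors for C3 fragments were among the genes that were higher. Itgam had 221 CPM in the control against 627 CPM in the ISO macrophages, a ratio of 1.5 (1.41 to 1.6). Itgax and the shared subunit Itgb2 had ratios of 1.41 and 1.16. C1qbp, a mitochondrial protein that binds C1q heads, had a ratio of 1.74. The second C5a receptor C5ar2 was at 33.8 and 17.7 CPM, a ratio of -0.94 (-1.22 to -0.64). Cd93, Calr, Lrp1, Cr1l and Cd300lb were within 2-fold, with ratios from -0.33 to 0.53.

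The list was also read in the other classes. In monocytes 5 of 15 measured genes were at least 2-fold higher and 0 were lower, where 11.6% and 18.9% of all genes were. C1ra and Colec12 among the 5 had 0 control UMIs and C5ar2 had 1, so their ratios rest on empty or nearly empty control groups. In neutrophils 4 of 11 were higher and 2 lower, where 27.5% and 13.8% of all genes were. In DCs 1 of 10, Cd300lb with 3 control UMIs, was higher and 0 were lower, where 7.34% and 8.07% of all genes were. C1ra in monocytes and Cd300lb in DCs were named after their values were seen.

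The genes whose levels followed the summed C1q chains most closely were ranked by Pearson's r of log2(CPM + 1) over 14 class-by-library sums of at least 50 cells, among 8896 genes. The first 5 were Pf4 (r = 0.93), G530011O06Rik (0.92), Ms4a7 (0.92), Gas6 (0.92) and C4b (0.92). The points share 2 libraries, and Pf4 and Ms4a7 are in the marker list of the macrophage gate. In macrophages all 5 were lower in the ISO library, from -3.51 for Gas6 to -1.43 for Pf4 on the log2 scale. The macrophage sums of both libraries were among the 14 points, so this direction follows in part from the choice and is not a separate result.

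When all kept cells of a library were summed, mixed barcodes included, the C1q chains together took 5741 CPM in control cells against 2172 CPM after ISO, a log2 ratio of -1.40 (-1.41 to -1.39). C3 was at 21.5 and 104 CPM, Cfp at 87.7 and 343 CPM, C3ar1 at 205 and 169 CPM, and C5ar1 at 230.0 and 500.5 CPM. C5ar1 was thus 1.12 log2 units higher over the whole library and 0.20 higher within macrophages. Fewer cells of a type and less RNA per cell cannot be told apart in these sums. Among the 1405 control and 912 ISO mixed barcodes past the macrophage cut, C1q levels by the other lineage ranged from 7060 to 8579 CPM in the control and from 3215 to 4857 CPM in the ISO library.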

How the data were processed

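Hearts were digested and CD45+ cells were captured with a 10x Genomics 3′ v3 kit. The deposited counts are UMIs per gene and barcode, made by the authors with bcl2fastq 2.19.1.403, UMI-tools 1.0.0, STAR 2.7.3a (mm10) and featureCounts 1.6.4. The annotation release is not given in the sources used here. Symbols follow an older annotation (Emr1 for Adgre1). The label of the control library names the ISO dose, and the PBS vehicle is taken from the title and the study's methods.

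Barcodes with over 500 and under 6000 genes and under 25% mitochondrial UMIs were kept. Macrophages and monocytes were gated on the mean log2(1 + UMIs per 10000) over 11 and 8 markers, at 1, by the higher score. B, T, NK, ILC2, DC and nonclassical monocyte gates needed 3 detected markers, and neutrophil and stromal gates needed 4. Barcodes past gates of several lineages, lymphocytes and stromal barcodes past the macrophage cut or with 2 of Chi3l3, Hp, Ifitm6 and Vcan, were set aside as mixed. Neutrophils and DCs past only the monocyte cut stayed in their class. No doublet caller was used. Subsets used cuts of 1 UMI per 10000 for resident markers and Ccr2, and 5 for Arg1.

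UMIs were summed per class, scaled to CPM, and given exact Poisson intervals, with Clopper-Pearson intervals for shares and conditional binomial intervals for ratios. Ratios had 0.5 UMIs added, and a count of 0 was given the upper bound of its exact interval. UMIs are counted molecules, so intervals cover counting only. Genes with at least 20 UMIs over both libraries entered the 2-fold counts. Cells were thinned to 1000 UMIs for shares, leaving out 14 control and 0 ISO cells. Values were computed with Python 3.11.15, numpy 2.4.6, scipy 1.17.1 and pandas 2.3.3, and figures were drawn with matplotlib 3.10.9. The ratio step was tested on simulated data. Named were all members, the listed complement genes at 20 CPM or more in macrophages, and the 5 genes most like C1q. A result for 1 listed gene is not reported here. The members, lists and gates were chosen with earlier results of these data known, and the gates were tightened after a first look at the classes. In all, 18 alternatives were planned. Others, chosen after seeing the data, were the NK cell subtraction, the single subsets, the top barcode left out and the DC split. No column of other samples was found.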

Additional observations from a re-analysis of the deposited data

Results flagged for a closer look

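The same contrast had opposite signs in macrophages and monocytes for C1qb, C3 and C3ar1, with both counting intervals off 0. The difference between the classes was not tested, since each class has 1 library per group. For C1qb the log2 ratio was -1.75 in macrophages and 1.0 in monocytes, a difference of -2.75. For C3 it was 1.85 and -1.08, a difference of 2.93. For C3ar1 it was -1.04 and 3.28, a difference of -4.32, and the control monocytes held only 8 C3ar1 UMIs in 62 cells. The ISO macrophages carried 2999 CPM of the monocyte markers against 238 CPM in the control. The ISO monocytes carried 6928 CPM of the macrophage markers against 3914 CPM in the control. The part of these shifts was not tested.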

How the results depend on the processing

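The C1q log2 ratio in macrophages kept its sign under all 18 alternatives that gave it, 14 planned and 4 added after seeing the data, and so did the gap to the other members. From -1.98, it was -2.05 with the macrophage cut halved and -1.29 with it doubled, -1.26 with barcodes of several lineages kept, -2.58 with monocytes added, -2.12 without resident-biased markers, -1.79 with each cell counted equally, -1.78 after thinning, -1.96 without ribosomal and mitochondrial genes, -1.73 centred on the median gene, -2.01 under 10% mitochondrial UMIs, -2.03 without the 5% of cells with most UMIs and -0.88 with the control mix of subsets. The added ones gave -2.0 with the NK cell level subtracted, -0.68 in resident, -1.65 in Ccr2-low and -2.26 in Ccr2 cells with little Arg1. From -2.75, the gap was -2.01 with the cut doubled, -2.52 with several lineages kept, -3.41 with monocytes added, -2.88 without resident-biased markers, -2.64 with cells counted equally, -2.63 after thinning, -2.19 with the B cell level subtracted, -1.53 with the control mix, -2.46 with the NK cell level subtracted, -1.22 in resident, -2.93 in Ccr2-low and -3.04 in Ccr2 cells with little Arg1. The 4 members at least 2-fold lower became 0 with the control mix and in resident cells. They became 3, without C3ar1, with the cut doubled, with several lineages kept, after thinning, centred on the median gene, and in Ccr2-low cells and Ccr2 cells with little Arg1. The 2 members higher became 1 with the B cell or NK cell level subtracted, with the control mix, and in resident and Ccr2 cells with little Arg1. The cause of these shifts was not tested. The gap leaves out Cfb, which had no ratio.

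Cell numbers limit the small classes: with 62 control monocytes and 104 control DCs, single barcodes moved values, and B, T and NK cells of the ISO library were under 50 cells each. No paired analysis was possible because each group has 1 library.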

Other observations

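Within the control macrophages C3 was uneven along the marker score. It was at 83.7 CPM (44.6 to 143) in the 40 cells with scores of 1 to 1.5 and at 12.3 CPM (8.80 to 16.8) in the 484 cells above 2.5, whereas in the ISO library these levels were 55.2 CPM (47.1 to 64.3) and 54.4 CPM (45.4 to 64.7). C3ar1 went the other way in both libraries, from 328 to 521 CPM in the control and from 138 to 345 CPM in the ISO library.

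Among complement genes outside the members, neutrophils held values not described above. Calr, which also binds C1q, was at 118 CPM in control and 566 CPM in ISO neutrophils, a log2 ratio of 2.24 (1.80 to 2.75). Cd300lb was at 364 and 60.0 CPM, a ratio of -2.59 (-3.14 to -2.09), and C5ar2 was at 66.1 and 22.9 CPM, a ratio of -1.52 (-2.54 to -0.56). C1qbp, Lrp1 and Itgax were also at least 2-fold higher, with ratios of 3.83, 2.93 and 1.35 on 2, 7 and 11 control UMIs. Of all genes in neutrophils, 27.5% were at least 2-fold higher and 13.8% at least 2-fold lower.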
